A study of Mus musculus with 12 samples.

Results

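Horizontal cells are interneurons of the outer retina that contact photoreceptor terminals and feed inhibition back to them. Their identity rests on transcription factors of the Onecut and LIM-homeodomain families and on Prox1, and mature horizontal cells hold large amounts of the calcium-binding protein calbindin. The genes examined were Onecut1 and Onecut2, which encode cut-homeodomain factors that specify horizontal cells, Lhx1, a LIM-homeodomain factor that places them in their layer, Prox1, a homeodomain factor that promotes their formation, and Calb1, which encodes calbindin. They were selected by gene symbol, and all 5 were found among the 56748 genes of the table (identifiers ENSMUSG00000043013, ENSMUSG00000045991, ENSMUSG00000018698, ENSMUSG00000010175 and ENSMUSG00000028222 in that order). None of Onecut2, Prox1 and Calb1 marks horizontal cells alone: amacrine and ganglion cells also hold Onecut2 or calbindin, and Prox1 is found in AII amacrine cells, bipolar cells and the lens. Whether Onecut1 or Lhx1 marked them alone in these samples was not tested.

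RNA was sequenced from whole mouse retina and from rod TRAP material of the same 2 genotypes, with 3 libraries in each of the 4 groups. TRAP (translating ribosome affinity purification) pulls down mRNA on ribosomes that carry an HA tag on Rpl22, and here the tag was switched on by a Cre under a rhodopsin promoter, so that rods, not horizontal cells, were the tagged population. All mice were 2 weeks old, carried that Cre, and were homozygous for RiboTag. The controls were heterozygous for the floxed Shp2 allele (RiboTag;Shp2fl/+ with i75-Rod-Cre, called Het here although their titles say wt), and their KO littermates were RiboTag;Shp2fl/fl with the same Cre, so that Cre acted on at least 1 floxed copy of Shp2 in rods of both groups. The comparisons ask how far horizontal cell transcripts remain in rod TRAP RNA, and whether their levels differ when rods lack Shp2, a tyrosine phosphatase encoded by Ptpn11.

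The values are whole numbers, taken here as reads multiplied by 1 factor per library, which was inferred from the values. Library totals nearly agree within a fraction (14525527 to 14527992 in retina and 16263948 to 16265259 in rod TRAP). Estimated depth was 9980000 to 19220000 reads in retina and 11900000 to 25270000 in rod TRAP. The rod list stood higher in rod TRAP than in retina for 8 of 8 genes in Het and in KO. Over all genes tested, 3650 of 16110 were called higher in Het and 4341 of 16121 in KO, by the rule given below. In rods Ptpn11 read 2511, 2439 and 2431 (Het) and 1735, 2139 and 1971 (KO), without overlap but not past the threshold (log2 fold change -0.23, SE 0.09, adjusted p = 0.078 by limma). With the GC trend removed it was -0.36 (adjusted p = 0.014) and under library size -0.34 (adjusted p = 0.015), still short of the fold limit, and with a KO rod library left out it ran from -0.16 to -0.35. The whole-gene value cannot show which exons were lost. KO retina replicate 3 stood apart, since 15 lens genes took 6.48% of its total against 0.00116% to 1.90% in the other retina libraries. Libraries also differed in how their values ran with transcript GC content. The difference between the top and bottom 10% of genes by GC content ranged from -0.84 to 0.90 on the log2 scale in retina, and it was below 0 in all 3 Het rod libraries (-0.81 to -0.23) and above 0 in all 3 KO rod libraries (0.28 to 0.76).

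The stretch before a gene's start holds sites at which transcription factors can bind. The 250 bases before the start are shown for the 3 genes with an entry in the RefSeq promoter table (build GRCm38.p6), to set these genes, which share a cell type and are near absent from rod TRAP RNA, side by side at their control regions. Each is written 5′ to 3′ on the strand of its gene. Capitals mark matches, on either strand, to CCAAT (the CCAAT box), to TATAAA (the TATA box) or to TGACGT (part of a cAMP response element).
Lhx1, chr11:84525535-84525784, minus strand: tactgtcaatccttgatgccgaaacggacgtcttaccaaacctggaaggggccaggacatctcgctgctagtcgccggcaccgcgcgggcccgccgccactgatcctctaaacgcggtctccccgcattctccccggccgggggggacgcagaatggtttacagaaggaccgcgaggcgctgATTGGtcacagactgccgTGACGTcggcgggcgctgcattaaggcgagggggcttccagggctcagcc
Onecut1, chr9:74861671-74861920, plus strand: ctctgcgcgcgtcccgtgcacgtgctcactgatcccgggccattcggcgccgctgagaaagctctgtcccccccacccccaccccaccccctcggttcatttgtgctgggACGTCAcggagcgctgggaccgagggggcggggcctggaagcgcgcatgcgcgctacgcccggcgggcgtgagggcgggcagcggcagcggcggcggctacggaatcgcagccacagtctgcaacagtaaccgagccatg
Prox1, chr1:190170828-190171077, minus strand: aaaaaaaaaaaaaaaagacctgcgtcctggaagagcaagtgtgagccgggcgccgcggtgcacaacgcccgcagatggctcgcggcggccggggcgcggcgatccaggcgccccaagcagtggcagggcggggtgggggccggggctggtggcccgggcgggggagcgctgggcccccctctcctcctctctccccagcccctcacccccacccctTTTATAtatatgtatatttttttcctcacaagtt
None of these windows held ATCAAT (a core of Onecut sites), TAATTA (LIM-homeodomain), GCCNNNGGC (TFAP2) or CAGCTG (an E-box), which occurred in 6.724%, 4.84%, 13.726% and 13.001% of all 32851 windows of that length. The marked letters were searched for only after the windows had been read. CCAAT was in the Lhx1 window at position -68 from the start and in 33.85% of all windows, TATAAA was in the Prox1 window at -34 and in 12.368%, and TGACGT was in the Lhx1 window at -50, in the Onecut1 window at -140 and in 6.469% of all windows. No pair of these motifs overlaps in the windows shown. A match is only a run of letters, and its absence says nothing of the factor. The Lhx1 window also holds 89 bases of the exons of Lhx1os, a noncoding gene that runs away from Lhx1 on the opposite strand. GC content was 64.8% for Lhx1, 71.6% for Onecut1 and 64.8% for Prox1, against a median of 52.4% over all windows. A further Prox1 start in the same table lies downstream and is not shown.

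In whole retina the 5 genes fell into a high pair and a low group of 3. Prox1 read 2730, 2284 and 3099 in Het retina and 2628, 2793 and 2232 in KO retina. Calb1 read 1163, 826 and 1418 in Het retina and 1191, 1192 and 718 in KO retina. Both were thus well above the low factors in every retina library, with the genotypes overlapping. Onecut2 read 164, 104 and 117 in Het retina and 116, 143 and 82 in KO retina. Lhx1 read 50, 66 and 54 in Het retina and 60, 48 and 42 in KO retina. Onecut1 was the lowest, with 13, 25 and 16 in Het retina and 22, 21 and 8 in KO retina, and the genotypes overlapped for each of these factors too.

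Since a long transcript gives more reads, levels of different genes were compared per kilobase of exon, as the mean ± SD over the 6 retina libraries. Prox1 stood at 313 ± 39.0 scaled reads per kilobase, Calb1 at 224 ± 53.9, Lhx1 at 13.1 ± 2.12, Onecut2 at 7.45 ± 1.78 and Onecut1 at 4.25 ± 1.54. The ranges of neighbours in that order touched or overlapped for Calb1 (148 to 293) and Prox1 (266 to 369) and for Onecut1 (1.95 to 6.08) and Onecut2 (5.05 to 10.1), while Lhx1 (10.3 to 16.2) lay just above the highest Onecut2 library. Among 16594 retina genes these levels fell at percentiles 87.2, 81.6, 16.5, 9.58 and 4.33. The order depends on the length used: per kilobase of coding sequence Calb1 (1385) came before Prox1 (1188) and Onecut2 (79.9) before Lhx1 (42.5), with Onecut1 last (12.5).

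**Figure D1:**
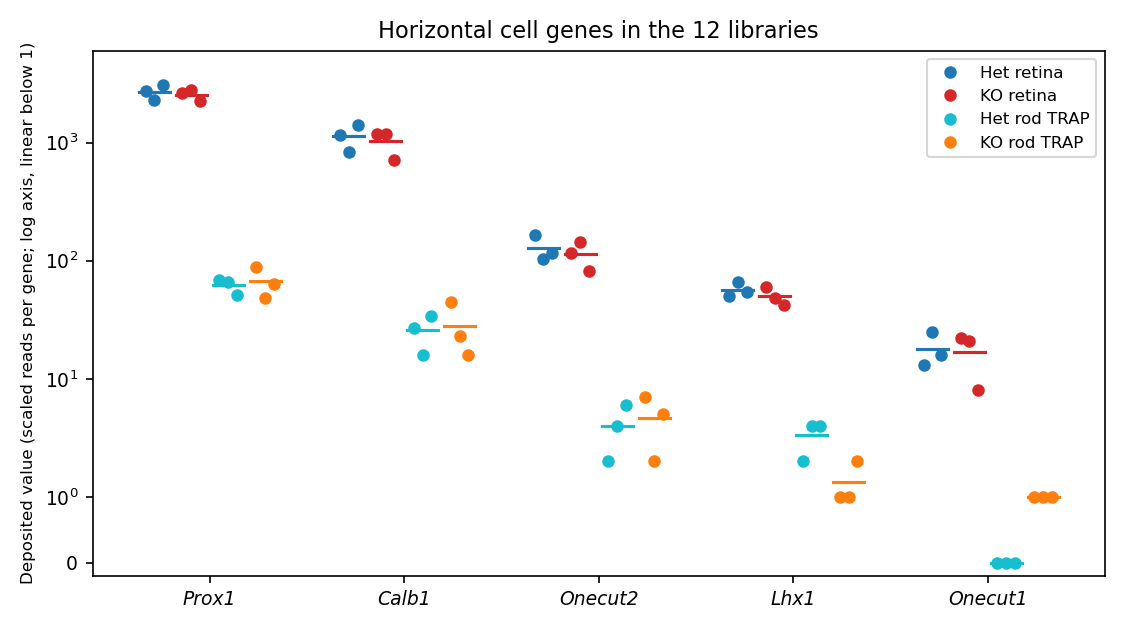
Deposited values (scaled reads per gene, log axis that is linear below 1) of the 5 horizontal cell genes in all 12 libraries. Points are libraries, coloured by group, and lines are group means of 3 libraries. For every gene each rod TRAP library lies below each retina library, while Het and KO overlap in retina.

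In rod TRAP RNA all 5 genes were far lower. Prox1 read 69, 66 and 51 in Het and 89, 48 and 64 in KO. Calb1 read 27, 16 and 34 in Het and 45, 23 and 16 in KO. These were the only 2 of the genes that would pass the filter on low values in rod libraries alone. Onecut2 read 2, 4 and 6 in Het and 7, 2 and 5 in KO. Lhx1 read 2, 4 and 4 in Het and 1, 1 and 2 in KO. Onecut1 was listed at 0 in all 3 Het rod libraries and at 1 in each KO rod library. Its level was also the lowest in retina, so values this low do not set it apart from the other genes.

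Measured as a share of estimated reads, what remained in rods was a few percent of the retina level. For Prox1 the pooled share of reads in Het rods was 2.06% of that in Het retina (exact 95% interval 1.79% to 2.37%, 203 against 8395 reads), and in KO it was 2.28% (1.96% to 2.65%). For Calb1 it was 1.83% in Het (1.44% to 2.30%) and 2.44% in KO (1.91% to 3.08%). The intervals of these genes overlap in each genotype. For Onecut2 it was 2.74% in Het (1.4% to 4.73%) and 3.55% in KO (1.81% to 6.28%). For Lhx1 it was 5.42% in Het (2.66% to 9.94%, 11 against 173 reads) and 2.67% in KO (0.72% to 7.0%, 4 against 141 reads). For Onecut1 there were 0 reads in Het rods against 53 in Het retina, which gave 0% (0% to 6.145%). A floor of 3 reads over the group would put its share 20.7-fold lower, without counting error. In KO 3 against 45 reads gave 6.28% (1.25% to 19.6%). The intervals of the 3 factors are wide and overlap those of Prox1 and Calb1 in the same genotype, except that of Lhx1 in Het, which lies above both. These intervals cover counting error only, not the spread between libraries.

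The difference between fractions was tested with limma on log2(TMM-scaled value + 2) over 16110 genes in Het and 16121 in KO, where a call needed an adjusted p under 0.05 together with a change of more than 0.5 log2 units. By that rule Het rods stood below Het retina in 36.4% of genes (59% were called in either direction), and KO rods stood below KO retina in 36.1% (63% in either direction). Groups without overlap, lower in rods, made up 39.3% of genes in Het and 38.9% in KO. Calb1 was lower by a log2 fold change of -5.12 (SE 0.30, adjusted p = 2.5e-06) in Het and -4.80 (SE 0.36, adjusted p = 7.3e-06) in KO. Prox1 was lower by -5.13 (SE 0.17, adjusted p = 3.3e-07) in Het and -4.85 (SE 0.21, adjusted p = 9.2e-07) in KO. On that scale Prox1 in Het rods was at 2.86% of the retina level (95% interval 2.18% to 3.76%) and Calb1 at 2.88% (1.8% to 4.61%).

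The low factors were also lower in rods, but they entered the fit through retina alone and had to differ once they did, so no count over them is read as support. Onecut2 had a log2 fold change of -4.24 (SE 0.35) in Het and -3.83 (SE 0.38) in KO, Lhx1 had -3.25 (SE 0.31) in Het and -3.69 (SE 0.31) in KO, and Onecut1 had -3.15 (SE 0.33) in Het and was not tested in KO. With values this close to 0 the fold change depends on the constant added before the logarithm: that of Onecut1 in Het ran from -5.02 to -1.38 over the alternatives, that of Lhx1 from -3.68 to -2.16, and that of Prox1 only from -5.56 to -4.91. Scaling by library size instead of TMM lowered the median over all genes tested to -0.51 in Het and -0.55 in KO, from -0.08 and 0.01. Under it 13.6% of calls were higher in rods in Het (38.4% with TMM) and 12.7% in KO (42.8%), while Prox1 stood at -5.56 and -5.41 and Calb1 at -5.54 and -5.34.

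The remainder was not the same in every rod library. Relative to the mean of the retina of the same genotype, on TMM-scaled values, the 5 genes summed to 2.97%, 2.75% and 2.86% in the Het rod libraries and to 5.05%, 2.69% and 3.06% in KO. KO rod replicate 1 was the highest library, at 5.81% for Calb1, 4.63% for Prox1 and 8.21% for Onecut2, but not for Lhx1 (2.66%) or Onecut1 (7.89% against 8.01% in KO rod replicate 2). Of the other lists, the summed amacrine genes (9.67%) were also highest in that library. So were the ganglion cell genes, by little (4.92%, against 4.83% in Het rod replicate 2). The bipolar and Müller glia genes were not, and the part of those cells in the result was not tested. It was also highest of the 6 for Onecut3 (7 scaled reads against 0 to 2 elsewhere) and Gja10 (10 against 0 to 3), which encode another Onecut factor and a horizontal cell connexin. Both were near the floor and were named after their values were seen. On TMM-scaled values that library was not the highest for Septin4, Sall3, Lrrc4, Gad2 or Ptf1a, which are also linked to horizontal cells. Without that library the log2 fold change in KO was -5.19 for Calb1 and -5.08 for Prox1.

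Of 14 other genes linked to horizontal cells, 12 were tested and 12 were lower in rod TRAP in both genotypes, with a median log2 fold change of -4.56 in Het and -4.10 in KO, where 36.4% and 36.1% of all genes tested were lower. Only 7 of the 14 would have passed in rods alone, so the others had to be lower once tested. Ptf1a and Foxn4, factors of horizontal and amacrine precursors, did not pass the filter: Ptf1a read 0 to 1 in retina and 0 to 2 in rods, and Foxn4 had a single value of 1, in KO retina replicate 1. The 4 highest in Het retina were Gad1 and Gad2, which make GABA, Tfap2b, an AP-2 factor of horizontal and amacrine cells, and Septin4, a cytoskeletal GTPase. Gad1 read 3422 to 3685 in Het retina and 84 to 125 in Het rods, a log2 fold change of -4.85 (SE 0.16), and -4.80 (SE 0.24) in KO. Tfap2b read 1913 to 2315 in Het retina and 44 to 74 in Het rods, a log2 fold change of -4.99 (SE 0.21), and -4.88 (SE 0.34) in KO. Gad2 had -4.86 (SE 0.32) in Het and -4.94 (SE 0.34) in KO. These GABA and AP-2 genes thus sat at the level of Prox1 and Calb1.

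Septin4 and Sall3 lay well above the median of these genes. Septin4 read 1653, 1841 and 1315 in Het retina, 466, 541 and 545 in rods of the same genotype, 1661, 1464 and 1519 in KO retina and 621, 685 and 609 in KO rods. Rods held about 39.5% of the Het retina level and 54.5% of the KO retina level, with a log2 fold change of -1.34 (SE 0.16, adjusted p = 1.1e-04) in Het and -0.88 (SE 0.11, adjusted p = 1.6e-04) in KO. Sall3, a zinc-finger factor, read 45, 64 and 51 in Het retina and 7, 11 and 18 in Het rods, a log2 fold change of -1.79 (SE 0.36), and -1.80 (SE 0.37) in KO.

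For comparison with Prox1 (-5.13 in Het and -4.85 in KO) and Calb1 (-5.12 and -4.80), the medians of lists of markers of other cell classes are given, beside medians of -0.08 and 0.01 over all genes tested. In Het and KO they were -4.72 and -4.37 for amacrine genes, -4.69 and -4.55 for bipolar genes, -4.82 and -4.45 for Müller glia genes, and -4.94 and -4.74 for ganglion cell genes. Further lists gave -4.16 and -4.01 for microglia, -3.75 and -3.69 for vascular cells, -3.20 and -2.83 for RPE, and -4.38 and -4.75 for lens. Only 0 of 7 microglia, 3 of 7 vascular, 3 of 6 RPE and 4 of 8 amacrine genes would pass the filter in rods alone. The rest entered through retina and had to be lower, so these medians are not read as measured depletion. Of 14 lens genes tested 0 were called lower in Het and 7 in KO. Of the RPE genes 5 of 5 tested were called lower in Het and 1 of 6 in KO. Over all genes tested 36.4% were called lower in Het and 36.1% in KO. Cones, the other photoreceptor, were at -1.11 and -0.91, and rods at 1.85 and 1.99. No difference between lists was tested.

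**Figure D2:**
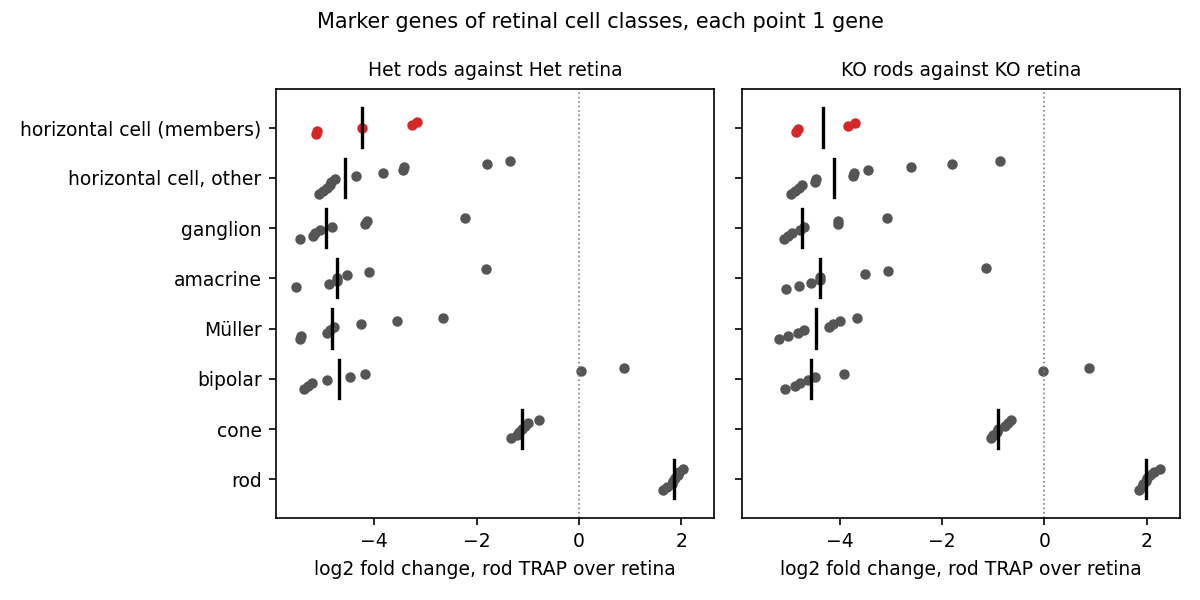
Log2 fold change, rod TRAP over retina, of marker genes of retinal cell classes that passed the filter, in Het (left) and KO (right). Each point is 1 gene, black bars are list medians, and the horizontal cell genes examined are in red. Calb1 and Prox1 lie within the range of amacrine, bipolar, Müller and ganglion cell genes, while cone genes lie nearer to 0 and rod genes above it.

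KO retina did not differ detectably from Het retina in any of the 5 genes. Prox1 had a log2 fold change of -0.06 (95% interval -0.43 to 0.31), Calb1 -0.12 (-0.73 to 0.48), Lhx1 -0.16 (-0.73 to 0.40), Onecut2 -0.17 (-0.80 to 0.47) and Onecut1 -0.12 (-1.11 to 0.87), all with an adjusted p of 0.999987 by limma. All 5 estimates were below 0, but the groups overlapped for all 5 (3.5% of genes had none), and 0% of the 16863 genes tested were called (140 at an unadjusted p under 0.05). For Prox1 the interval put the KO level between 74.0% and 124% of Het, and for Onecut1 between 46.3% and 182%. In bulk tissue fewer horizontal cells and less RNA per cell could not be told apart. Of the other horizontal cell genes 0 of 12 tested were called, 6 above and 6 below 0, with a median of 0.01 beside 0.01 over all genes tested.

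The estimates depended on KO retina replicate 3, the library with the most lens RNA. That library also had the highest GC trend of the 6 retina libraries (0.90). On the deposited scale it held the lowest value of the 6 retina libraries for all 5 genes, and on the TMM scale for all but Prox1, which was lowest in Het retina replicate 2. Without it the log2 fold change was 0.09 for Calb1, 0.01 for Onecut2 and 0.26 for Onecut1, and it stayed at -0.08 for Lhx1 and -0.00460 for Prox1. Without Het retina replicate 3 it was 0.06 for Calb1 and 0.05 for Prox1, and without Het retina replicate 2 it was 0.11 for Onecut1.

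**Figure D3:**
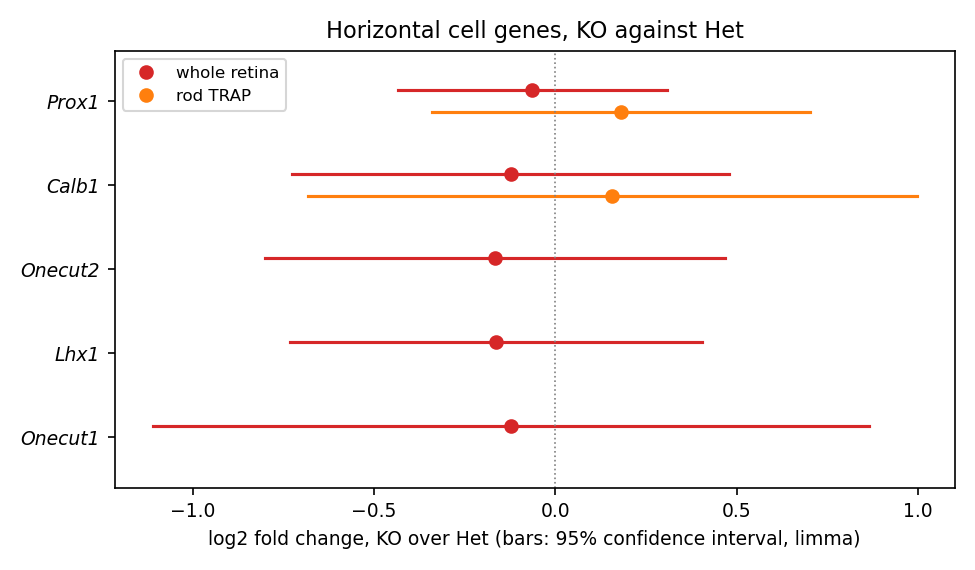
Log2 fold change of KO over Het for the 5 genes, in whole retina (red) and, for the 2 genes that passed the filter there, in rod TRAP (orange). Points are limma estimates from 3 libraries against 3, and bars are 95% confidence intervals. Every interval spans 0.

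In rod TRAP RNA only Calb1 and Prox1 could be tested between genotypes. Calb1 had a log2 fold change of 0.16 (95% interval -0.68 to 0.996, adjusted p = 0.80 by limma) and Prox1 of 0.18 (-0.34 to 0.70, adjusted p = 0.61), against 13.6% of 13055 genes called. With the GC trend removed, which was below 0 in all Het and above 0 in all KO rod libraries, Calb1 stood at 0.43 (adjusted p = 0.54) and Prox1 at 0.34 (adjusted p = 0.40). Over all genes, 88.7% of the 1781 calls were higher in KO, against 67.3% of the 1786 calls made with library size scaling and 54.1% of the 353 calls made with the GC trend removed. Without KO rod replicate 1 the estimates turned to -0.23 for Calb1 and -0.04 for Prox1, and without Het rod replicate 2 to -0.15 for Calb1. Onecut1 values did not overlap (0 against 1 in every library), as 25.3% of genes tested also did with KO higher, but they rest on 0 against 3 reads, so that a difference was not detectable at this depth. Among the other horizontal cell genes 0 of 7 tested were called, with a median of -0.01 beside 0.01 over all genes tested. Septin4 was higher in every KO rod library than in every Het rod library, with a log2 fold change of 0.41 (SE 0.11, adjusted p = 0.017), under the fold limit of 0.5. With the GC trend removed this fell to 0.16 (adjusted p = 0.25), and in a single fit of 12 libraries the adjusted p was 0.19 by limma.

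Whether the genotype effect differed between the fractions, which also asks whether rod depletion differed between genotypes, was asked with an interaction term across the 12 libraries and 17192 genes, of which 0% were called (517 at an unadjusted p under 0.05). The difference, rods minus retina, was 0.80 (SE 0.51) for Onecut1, 0.40 (SE 0.52) for Onecut2, -0.46 (SE 0.41) for Lhx1, 0.31 (SE 0.51) for Calb1 and 0.28 (SE 0.28) for Prox1 on the log2 scale, with adjusted p from 0.89 to 0.92 by limma. With errors of 0.28 to 0.52, differences of this size were not detectable.

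The spread between retina libraries was set beside counting error. Over the 6 libraries the Calb1 coefficient of variation was 24.1%, where counting alone would give 3.13%, and the same comparison gave 12.4% against 2.00% for Prox1, 23.9% against 9.30% for Onecut2, 16.2% against 14.2% for Lhx1 and 36.3% against 25.1% for Onecut1. Counting error falls as the level rises, so the gap between these pairs of values follows in part from the level of each gene.

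That spread in Calb1 and Prox1 ran with the GC trend of the libraries. In order of rising GC trend (-0.84, -0.63, -0.24, 0.01, 0.86 and 0.90) Calb1, whose transcript has 36.8% GC, read 1418, 1192, 1163, 1191, 826 and 718. Slc32a1, the vesicular GABA transporter of horizontal and amacrine cells with 61.9% GC, read 121, 165, 199, 264, 477 and 376 in the same order. Slc32a1 was chosen after its values were seen, and other GC-rich genes need not follow it: Onecut3, with 59.1% GC, read 48, 57, 69, 71, 53 and 48 in that order. With the trend removed the range between the highest and the lowest retina library shrank from 0.93 to 0.31 log2 units for Calb1, from 0.46 to 0.14 for Prox1 and from 1.94 to 0.62 for Slc32a1, beside 0.73 to 0.52 for the median gene. It went from 0.90 to 0.63 for Onecut2, from 0.56 to 0.68 for Lhx1 and stayed at 1.38 for Onecut1. It grew for Onecut3, from 0.50 to 1.14, and for Gja10, from 0.59 to 0.81. After that removal the KO retina against Het retina estimate was -0.04 (SE 0.10) for Calb1, from an SE of 0.26 before, and -0.04 (SE 0.08) for Prox1, from 0.16, and neither passed the test.

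**Figure D4:**
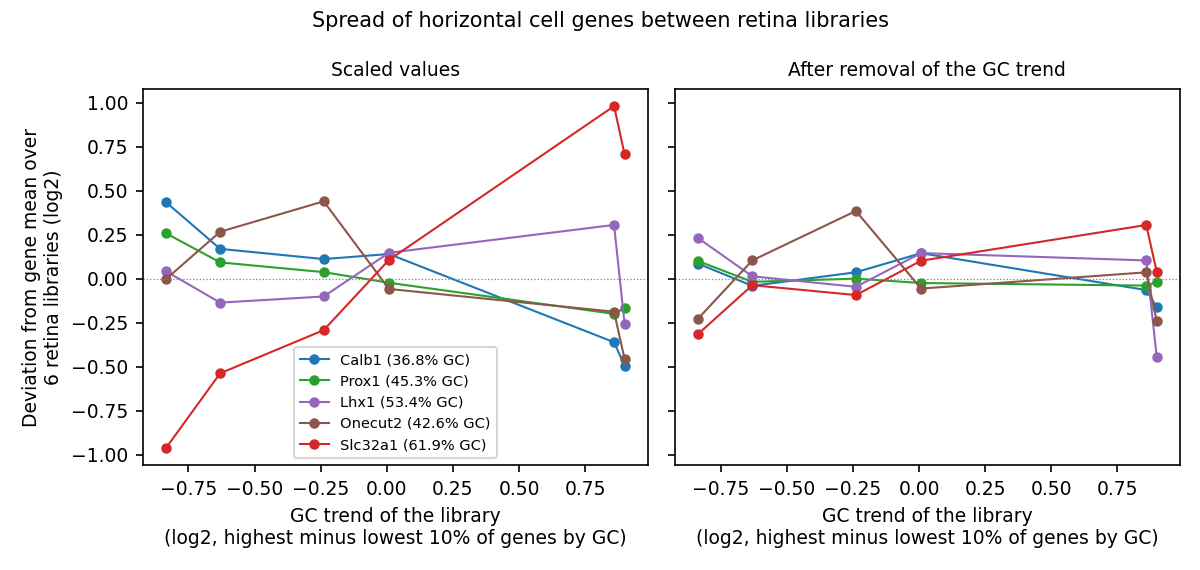
Deviation of 4 of the horizontal cell genes and of Slc32a1 from their mean over the 6 retina libraries (log2), against the GC trend of each library, before (left) and after (right) the trend was removed. Points are libraries, joined by lines for each gene. On the left Calb1 (36.8% GC) runs down and Slc32a1 (61.9% GC) runs up, and on the right both lie closer to 0.

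Reads on an antisense neighbour could not be told apart from those of the gene wherever they overlap, because the library kit does not mark strand. Prox1os overlaps the start of Prox1 on the opposite strand in the GRCm38 annotation, and Lhx1os starts within the window shown for Lhx1 and runs the other way. Lhx1os read 24, 19 and 46 in Het retina and 0, 1 and 1 in Het rods (log2 fold change -3.34, SE 0.39), and -2.91 (SE 0.46) in KO. Prox1os had a log2 fold change of -4.86 (SE 0.66) in Het and -4.59 (SE 0.63) in KO. Prox1os varied from 64 to 405 in retina, and it ran with the lens share, a relation noticed only after the values were seen. In order of rising lens share (0.00116%, 0.481%, 1.16%, 1.72%, 1.90% and 6.48% of the retina total) Prox1os read 64, 124, 204, 260, 173 and 405, and Prox1 read 2730, 2628, 2793, 3099, 2284 and 2232. In rod TRAP, where that share was 0.103% at most, Prox1os read 0, 1, 3, 7, 6 and 12 in the same kind of order, and Prox1 read 69, 89, 66, 48, 51 and 64. The part of lens RNA in either value was not tested.

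The genes whose pattern over the 12 libraries was closest to each of the 5 were found among 17191 genes by the root-mean-square difference of centred log2 values. Prox1 was nearest to Ptprd, a receptor tyrosine phosphatase (0.13), Parva (0.16) and Robo2, an axon guidance receptor (0.16). Calb1 was nearest to Kcnj2, an inward rectifier potassium channel (0.18), Rian, a noncoding RNA (0.22), and Drd1, a dopamine receptor (0.23). Onecut2 was nearest to Sv2c, a synaptic vesicle protein (0.21), Hs3st4 (0.21) and Gm38393 (0.21). Lhx1 was nearest to Gprasp2 (0.23), the processed pseudogene Gm11223 (0.23), whose reads may be shared with its parent gene, and Lrrc4 (0.25). Onecut1 was nearest to Klhl38 (0.27), Gm13563 (0.28) and Tekt1 (0.30), all of which were low. Between the 5 themselves the closest pair was Calb1 and Prox1 (0.38), which put Calb1 at rank 308 of the genes nearest to Prox1, and the farthest pair was Onecut1 and Calb1 (1.23).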

How the data were processed

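Retina and rod TRAP RNA (100 ng each) was made into libraries with the Takara SMART-Seq V4 kit, which does not mark strand, and 12 libraries were used (0 columns of other samples). The submitters' processing notes name CASAVA 1.8.2, HISAT2, DESeq2, edgeR and GRCm39, with no roles. The counting tool, annotation and filter are not given in the sources used here. The authors deposited a signal per gene in whole numbers. These were taken to be proportional to reads, which no source used here states. From the near equal totals and gaps between low integers, a scaling factor per library of 0.644 to 1.456 was inferred, and no factor other than 1 was distinguishable for Het retina replicate 3. Estimated reads are values divided by it, and shares of reads have exact (Clopper-Pearson) 95% intervals.

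The genes, lists and tests were chosen with earlier results of these data known. Groups follow the labels for genotype and tissue. Nothing states that libraries came from separate mice, so p-values measure the spread between these samples, which may be technical. Values were TMM-scaled, raised by 2 and log2-transformed, and limma 3.58.1 (R 4.3.3, trend and robust options) was fitted to the groups compared, with Benjamini-Hochberg adjustment over all genes with a value of about 10 in at least 3 libraries and a sum of at least 15. With 3 libraries against 3 no exact permutation p can go below 0.1. In simulations with 200 genes changed by 1 log2 unit, 88.5% were recovered for KO against Het rods, 92% for KO against Het retina and 40.5% for the interaction. Those simulations had no GC trend, gave every gene the same spread beyond counting error, and changed only genes above a set level. They thus do not give the power for the 5 genes. GC content and exon lengths came from GENCODE M21 (GRCm38), whose build differs from that of the authors, and sequences from the RefSeq table (Python 3.11.15). The paper reports that input and immunoprecipitated RNA of retinas were both sequenced, and the main fits left the 2 fractions unpaired. Same-numbered libraries deviated together in Het rods and Het retina (correlations 0.47, 0.41 and 0.25). In the other comparisons at least 1 correlation fell below 0.1 (0.33, -0.01 and 0.18 in KO rods and KO retina). Named genes were the 5 genes, the 4 highest of the other horizontal cell genes in Het retina, the antisense genes, the 3 nearest genes of each, and Ptpn11. Slc32a1, Sall3, Onecut3, Gja10, Ptf1a and Foxn4 were named after their values were seen. Alternatives were other scalings, pseudocounts of 0.5 and 10, no filter, each library left out, a replicate block, removal of the GC trend (alone and with the block), a single fit of all 12 libraries and a plain empirical Bayes step.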

Additional observations from a re-analysis of the deposited data

How the results depend on the processing

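Of 633 values of named genes under alternatives, 618 kept their direction and side of the threshold and 15 changed sign, all 15 when a library was left out and none past the threshold. In both fraction comparisons Calb1 and Prox1 stayed called under all alternatives run. The 3 low factors did so too where tested, but they entered through retina alone and had to differ, so this is not read as support. Over all alternatives, the log2 fold change of KO over Het in rods ran from -0.23 to 0.47 for Calb1. Without Het rod replicate 2 the Calb1 value was -0.15. For Prox1 the log2 fold change ran from -0.0438 to 0.34. In retina it ran from -0.33 to 0.26 for Onecut1, from -0.34 to 0.0140 for Onecut2, from -0.34 to 0.0855 for Calb1, from -0.18 to 0.0492 for Prox1 and from -0.12 to 0.0234 for Ptpn11, and in the interaction from -0.0725 to 0.64 for Calb1. Of 85 counts of called genes 76 stayed within 1.5 times. KO against Het rods had 1781 calls, but 353 with the GC trend removed, 407 with that and the replicate block, and 0 in a single fit of 12 libraries. It had 1069 without Het rod replicate 1, 1173 without KO rod replicate 2, and at most 1956 with any library left out. Of the 353 calls 203 were shared with the 1781. KO against Het retina had 1 call with plain empirical Bayes and 0 to 1 with a library left out, and the interaction 0 to 1. Under library size 67.3% of calls in KO rods were higher, against 88.7%. The replicate block gave 9946 calls in Het rods against retina, 9982 in KO, 1912 in KO against Het rods and 0 in the others, and changed no call of the 5 genes. The cause of these changes was not tested. Depth limits the 3 low factors most, with 0 to 13 estimated reads in the rod libraries of a group.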
